A study of Mus musculus with 24 samples.

Results

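The data described here are the signals of 33 genes that mark the choroid plexus, the ependyma and the meninges, read on whole-genome Affymetrix mouse expression arrays of the right cerebral hemisphere of 24 mice. The genes were taken from a list of markers by name: 13 of the choroid plexus, 6 of the ependyma and 14 of the meninges. Where several probe sets were annotated to a gene and to no other, the one with the highest average signal stands for the gene. Of the 33 genes, 31 had such a probe set (Enpp2 and Prlr had none in the annotation used), and 27 lay at or above the median probe set level of 4.07 on the log2 scale. The 27 were 8 of the choroid plexus, all 6 of the ependyma and 13 of the meninges, among 13839 features that passed the same filter (11645 genes and 2194 probe sets that the annotation leaves unnamed). Aqp1, F5, Slc4a5 and Col1a1 lay below it, so the water channel, coagulation factor V, the bicarbonate transporter and the collagen I alpha chain are given here only as low signals: over the 24 arrays Aqp1 stayed between 3.07 and 3.75, F5 between 3.36 and 3.84, Slc4a5 between 2.78 and 3.30 and Col1a1 between 3.49 and 5.00.

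The mice were NMR-1 females, 8 weeks old at the start, kept for 2 weeks on 1 of 4 diets with 6 mice each and 3 of each diet in either of 2 labelled batches. Chimpanzee mice ate a diet of vegetables, fruit and yogurt, HumanCafe mice cooked food from a cafeteria, FastFood mice a fast food diet, and Pellet mice the pellets on which all had been raised. No genotype or drug differed between the groups, and each array holds the RNA of 1 mouse. The comparison asks whether these genes differ between a human and a chimpanzee diet in brain.

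The choroid plexus is an epithelium that floats in the ventricles and makes cerebrospinal fluid, the ependyma is the ciliated lining of the ventricles, and the meninges are the fibroblast-rich membranes around the brain. All are thin tissues at the surface of the brain or of its cavities, so a dissected hemisphere holds more or less of each. In such bulk RNA, fewer cells of a type and less RNA per cell cannot be told apart. Transthyretin (Ttr), the thyroid hormone carrier of the cerebrospinal fluid, is the classical transcript of the choroid plexus, Foxj1 drives the program of motile cilia, and collagens and small proteoglycans such as decorin make up the matrix of the meninges.

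The arrays were alike in most respects. The median log2 signal of an array lay between 4.02 and 4.32, and 23 arrays had a median correlation with the others of 0.980 to 0.993. The array of the Pellet mouse labelled batch 2 replicate 1 stood apart, with a median correlation of 0.893 and a spread of signals (SD) of 1.58 against 1.81 to 2.06 in the other 23. Of the 27 genes, it held the lowest of the 24 values for 6 of 8 choroid plexus and 7 of 13 meningeal genes and the highest for 4 of 6 ependymal and 3 of 13 meningeal genes. Several results that rest on it, though not all, are therefore given with and without it. A further 2 arrays, both of HumanCafe mice, stood apart in particular genes. The labelled batches ran in opposite ways in the pellet arrays. The 18S ribosomal RNA control probes read 5.87 to 6.58 in batch 1 and 4.88 to 5.15 in batch 2 on the other 3 diets, but 4.96 to 5.51 in batch 1 and 5.92 to 6.42 in batch 2 on pellets. No source used here says that batches were exchanged, and the labels were kept.

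The choroid plexus genes varied from mouse to mouse more than from diet to diet, and 1 mouse stood out. The HumanCafe mouse labelled batch 2 replicate 1 had the highest of the 24 values for 7 of the 8 choroid plexus genes. Folr1, the folate receptor that carries folate into cerebrospinal fluid, read 6.47 in this mouse, against 4.67 to 5.85 in the other 23. Clic6, a chloride channel protein, read 6.73 against 4.80 to 6.22. Kl, which encodes the FGF co-receptor klotho, read 5.42 against 3.73 to 5.10. Kcnj13, a potassium channel of the apical membrane, read 6.11 against 4.63 to 5.50, and Calml4, a calmodulin-like protein, 5.75 against 3.95 to 5.39. The other two were Otx2 (4.70), the homeodomain factor that specifies the epithelium, and Sostdc1 (5.67), a secreted BMP and Wnt antagonist, which lay 0.12 and 0.06 or less above the next mouse. The eighth gene, Ttr, read 12.59 in this mouse, within the 10.86 to 12.65 of the other 23.

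The same mouse was examined across all features. Its choroid plexus genes lay above the median of the other 23 arrays by 0.26 to 1.13 (median 0.85), 6 of the 8 among the top 1% of 13839 features of that array. Folr1 was the eighth highest feature by this difference and Clic6 the fifteenth. The 3 highest, named after their values were seen, were Gabra6 (3.65 above), a GABA receptor subunit of cerebellar granule cells, Pcp2 (2.15 above), a Purkinje cell gene, and Car8 (1.75 above). A list of 10 cerebellar genes, drawn up after this was seen, had 6 genes above the level filter, and their mean signal was 7.14 in this mouse. That mean was higher in the Pellet mouse labelled batch 2 replicate 3 (8.21) and in the HumanCafe mouse labelled batch 1 replicate 3 (7.30), whose choroid plexus genes had median differences of -0.01 and -0.02 from the other arrays. The part of cerebellar tissue in the choroid plexus values was not tested. A second list of 24 choroid plexus genes, of which 16 passed the filter, lay above the other arrays by a median of 0.28 in the mouse with the high Folr1 value, 13 of 16 higher.

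**Figure D1:**
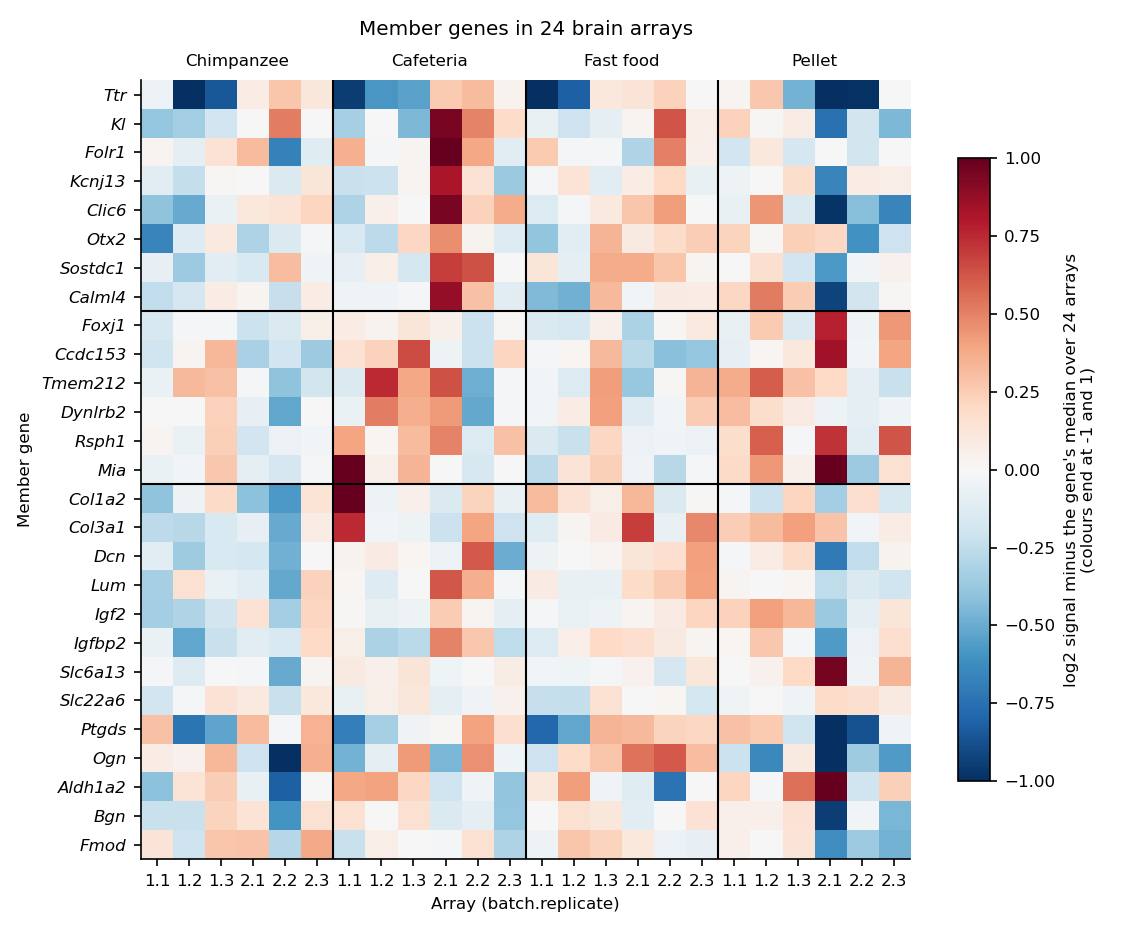
Signal of the 27 genes (rows, in the order choroid plexus, ependyma, meninges, parted by lines) in the 24 arrays (columns, by diet, then batch and replicate), as log2 difference from each gene's median over the arrays; colours end at -1 and 1. The column of cafeteria array 2.1 is red for all 8 choroid plexus genes, that of cafeteria array 1.1 for Mia, Col1a2 and Col3a1, and that of pellet array 2.1 holds the lowest Ttr value (10.86) and the highest Aldh1a2 value (6.03).

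Over the 24 arrays the choroid plexus genes varied in the same direction. All 28 pairs of the 8 genes had a positive correlation, with a median r of 0.58. For comparison, 74.1% of all features had a positive r with Ttr. The closest pair was Kl and Clic6 (r = 0.83), followed by Kl and Sostdc1 (r = 0.78). After the diet and batch means were taken out these were 0.53 and 0.66. Kl and Clic6 also followed the SD of the arrays (r = 0.68 and 0.78) and ran against the 18S signal (r = -0.73 and -0.63). The pairs rest on 1 probe set a gene. The second probe sets of Clic6 (mean 5.56) and Sostdc1 (mean 4.21) had r of -0.08 and 0.39 with the ones used. That of Kl (mean 3.15, below the level filter) had r of -0.51. Single arrays weighed in these values. Without the cafeteria mouse described above the median r was 0.42, and without both that mouse and the pellet array that stood apart it was 0.26, with 26 of 28 pairs still positive. After the mean of each diet and batch was taken out, the median was 0.41. These values are descriptions, since the pairs share arrays.

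Ttr itself followed the overall spread of the arrays. Its signal correlated with an array's SD of all signals at r = 0.90 over the 24 arrays, and 54.7% of all 13838 other features had an r with Ttr above 0.5 (median 0.56). The 10 features most like Ttr were Mbp, Fth1, Atp5b, Actb, Cpe, Eef1a2 and Ckb, with 3 probe sets that have no single gene listed, at r = 0.97 to 0.98. Of the 75 relations tested between the 27 genes and 3 reference genes (permutation test with 100000 resamples, two-sided, Benjamini-Hochberg over the 75), 20 passed an adjusted p of 0.05, and 8 of these were with Ttr. Clic6 correlated with Ttr at r = 0.69 (permutation p = 8e-05, adjusted 0.0018) and rho = 0.82 (permutation p = 1e-05, the smallest these permutations can give, adjusted 0.000375). Within batches r was 0.57 and 0.77. After the diet and batch means were taken out r was 0.39, and without the 2 arrays farthest from the median of Ttr it was 0.54. With the mean of all probe sets of each gene r was 0.50. Folr1 did not follow Ttr (r = 0.09, rho = 0.07, adjusted permutation p = 0.785 for r). Sostdc1 had the highest r with Ttr of the choroid plexus genes (r = 0.70) and ranked 4627 of the 13838 features. The 4 Ttr probe sets agreed, at r = 0.98 to 0.99 with the one used.

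Of the 26 other genes, Ptgds had the highest r with Ttr and ranked 258 of all 13838 features. It encodes the prostaglandin D synthase of meninges, choroid plexus and oligodendrocytes. Ptgds correlated with Ttr at r = 0.94 (permutation p = 1e-05, adjusted 0.000375) and rho = 0.82 (adjusted 0.000375), with r of 0.97 and 0.94 within batches, 0.92 after the cell means were taken out and 0.92 without the 2 farthest arrays. Ptgds signal also followed the SD of the arrays (r = 0.92). Aldh1a2, the retinoic acid synthase of meningeal fibroblasts, ran against Ttr (r = -0.66, rho = -0.61, adjusted permutation p = 0.0018 and 0.0112), with r of -0.48 and -0.70 within batches and -0.56 without the 2 farthest arrays, and against the SD (r = -0.72, and -0.55 without the pellet array that stood apart).

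No choroid plexus gene passed a test between diets. Ttr read 11.13 to 12.61 (median 12.34) in Chimpanzee mice, 11.39 to 12.65 (median 12.09) in HumanCafe mice, 11.34 to 12.57 (median 12.39) in FastFood mice and 10.86 to 12.60 (median 12.10) in Pellet mice. The 4 ranges overlap over most of their length. The difference between the human diets (the mean of HumanCafe and FastFood) and the Chimpanzee diet was 0.04 ± 0.26 (SE) for Ttr, and that between FastFood and HumanCafe 0.02 ± 0.30. Folr1 read 4.67 to 5.67 (median 5.31) in Chimpanzee mice, 5.25 to 6.47 (median 5.54) in HumanCafe mice, 5.05 to 5.85 (median 5.37) in FastFood mice and 5.16 to 5.45 (median 5.26) in Pellet mice. These ranges also overlap, and Folr1 differed between human and Chimpanzee diets by 0.25 ± 0.16 (adjusted p = 1.00, limma).

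Over all 27 genes, none passed an adjusted p of 0.05 in any of the 4 diet tests over both batches, which take the batch difference to be the same on every diet. Within batch 2 alone 5 of 27 genes were called among the 4 diets and 10 between pellets and the others, and within batch 1 alone 0 and 1. The batch difference on pellets ran against that on the other diets, as described with the batches. It differed from that on the other diets in 69.3% of all features. Shares of all features called within 1 batch are not given here, so these single-batch counts do not single out the 27 genes. Over both batches, the limma F test among the 4 diets called 6 of 13839 features (0.0434%), the human against Chimpanzee contrast and the FastFood against HumanCafe contrast called 0 each (0%), and pellets against the other 3 diets called 1 (0.00723%). At an unadjusted p under 0.05 the 4 tests held 2, 4, 0 and 7 of the 27 genes. They held 739, 277, 91 and 3158 of all features (5.34%, 2%, 0.658% and 22.8%). In these fits a batch difference peculiar to pellets counts as spread. In the human against Chimpanzee and FastFood against HumanCafe contrasts the share lay below what this threshold gives by chance. Their 0 calls are therefore weak evidence of no difference. The two-way test of diet and batch named in the study's methods left 6024 features without an interaction, 20 of the 27 genes among them. Of these, 126 features had an unadjusted p under 0.01 for diet, and 0 of the 20 genes did.

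The direction of the human diet contrast was shared by most of the genes even though no gene passed. Of the 27 genes, 24 were higher on the human diets, 8 of 8 choroid plexus, 6 of 6 ependymal and 10 of 13 meningeal, with medians of 0.20, 0.12 and 0.16 on the log2 scale. Over all features 7540 of 13839 were higher, with a median of 0.01. The 4 genes past an unadjusted p of 0.05, named here after their values were seen, were matrix genes of the meninges. Col1a2, a collagen I chain, read 5.57 to 6.34 (median 5.92) on the Chimpanzee diet, 6.0 to 7.40 (median 6.14) on the HumanCafe diet and 6.0 to 6.48 (median 6.25) on the FastFood diet. Col1a2 differed by 0.35 ± 0.16 (SE), with a 95% interval of 0.02 to 0.68 and an adjusted p of 1.00 (limma). The difference was 0.34 ± 0.14 for Col3a1, a collagen III chain, 0.28 ± 0.13 for Dcn, which encodes decorin, and 0.24 ± 0.12 for Lum, which encodes lumican.

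The direction was much the same without the arrays that stood apart. Without the 3 arrays that stood apart (the pellet array and 2 cafeteria arrays), an alternative chosen after seeing the data, 25 of 27 genes were higher, with a median of 0.13. Within batch 1 alone 22 of 27 were higher (median 0.12) and within batch 2 alone 25 of 27 (median 0.18). Genes of 1 tissue varied together across arrays, so these counts are not 27 separate observations. Among further genes of the same tissues, 14 of 16 of the choroid plexus, 8 of 9 of the ependyma and 10 of 17 of the meninges were higher, with medians of 0.06, 0.11 and 0.04, and none passed the adjusted threshold. The direction was not particular to these tissues. Lists of other regions and cell types lay higher too, with 7 of 7 genes of the thalamus (median 0.52, 4 at an unadjusted p under 0.05), 9 of 9 of oligodendrocytes (median 0.23), 4 of 4 of the pituitary (median 0.28) and 6 of 7 of endothelium (median 0.09), while 3 of 10 of neurons did (median -0.04). None of these genes passed the adjusted threshold. The 6 cerebellar genes were higher as well (6 of 6, median 0.71, none past the threshold), and their mean signal ran from 4.90 to 5.77 in Chimpanzee mice, 5.38 to 7.30 in HumanCafe mice and 4.99 to 6.65 in FastFood mice. The part of these regions and cell types in the diet contrast was not tested. Of the Chimpanzee arrays, that labelled batch 2 replicate 2 held the lowest value for 5 of 13 meningeal genes. Without it the meningeal median fell to 0.04 and 0 of the 13 had an unadjusted p under 0.05.

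**Figure D2:**
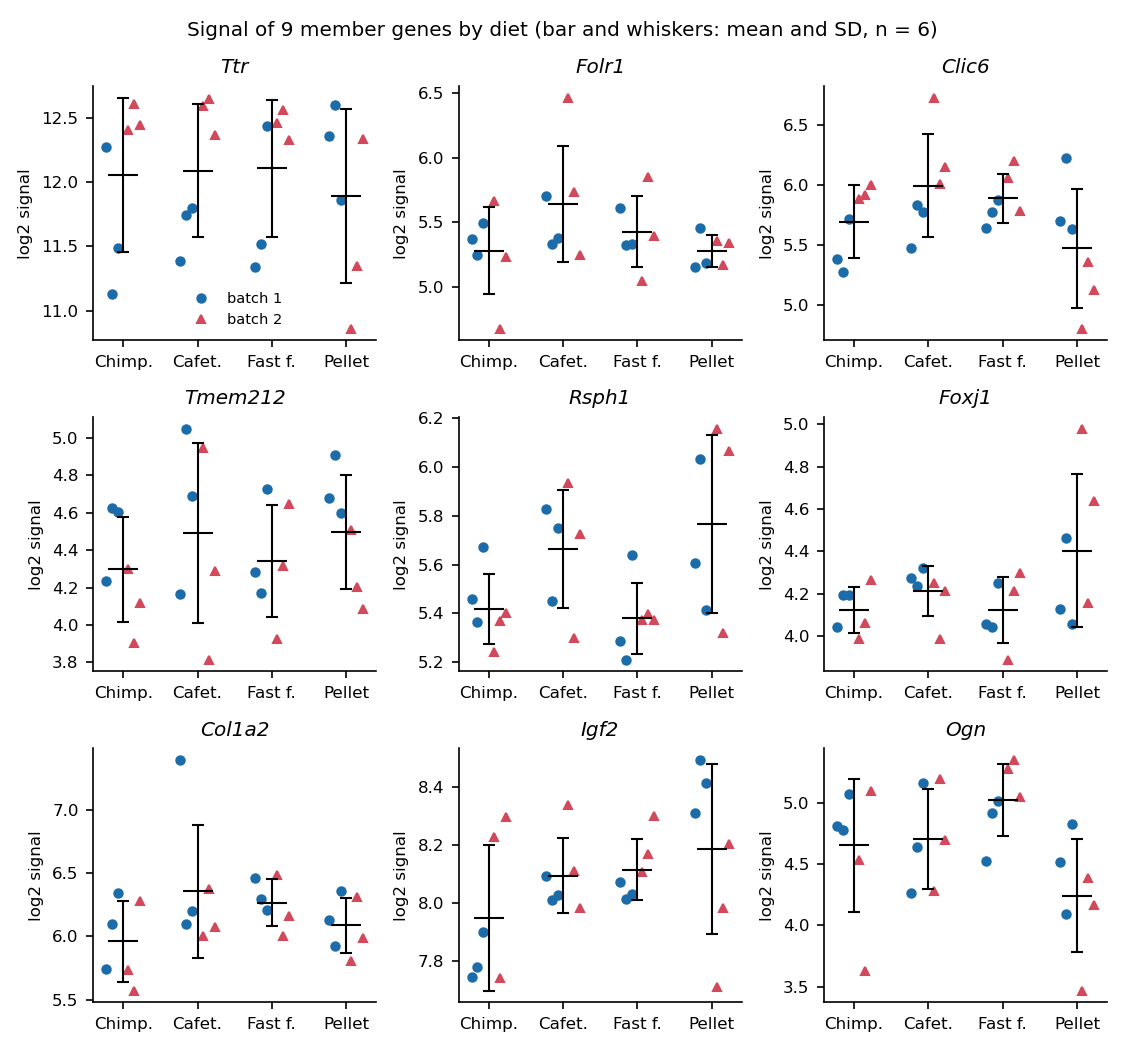
Log2 signal of 9 genes (panels) in the 6 mice of each diet (circles batch 1, triangles batch 2), with the mean as a bar and the SD as whiskers. The diets overlap in every panel, single mice such as HumanCafe batch 1 replicate 1 (Col1a2, 7.40) lie apart, and Ogn runs lowest in Pellet mice (median 4.28).

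Among the ependymal genes, 2 links were closest. Rsph1, a radial spoke protein of motile cilia, was used as reference because it had the highest mean of the 6. Of all 13838 other features, Foxj1 was the one most like it (r = 0.81, permutation p = 1e-05, adjusted 0.000375, rho = 0.74, adjusted 0.000937). Within batches r was 0.86 and 0.83. It was 0.81 after the diet and batch means were taken out, 0.70 without the 2 farthest arrays, 0.78 without the pellet array that stood apart and 0.63 without all pellet arrays. Mia (r = 0.70, rho = 0.75, adjusted permutation p = 0.0018 and 0.00135) ranked 43 among the features and Ccdc153 (r = 0.67, rho = 0.58, adjusted permutation p = 0.00331 and 0.0205) ranked 116. Without the 2 farthest arrays Mia gave r = 0.64 and Ccdc153 0.49, and within batches r was 0.70 and 0.73 for Mia and 0.34 and 0.86 for Ccdc153. Of 25 relations tested with Rsph1 as reference, 5 passed by r, and 2 of these were meningeal. They were Slc6a13 (r = 0.59, rho = 0.56, adjusted permutation p = 0.0049 and 0.027) and Ogn (r = -0.51, rho = -0.36, adjusted permutation p = 0.0401 and 0.238). Without the 2 farthest arrays their r was 0.26 and -0.28. For comparison, 8.82% of all features had an r with Rsph1 above 0.5, and the median over all features was -0.28. The other features among the 10 most like Rsph1 were Spint2, Top3a, Hk3, Ercc2 and Lrrc23 and 4 probe sets with no single gene listed. Lrrc23 is itself a radial spoke gene.

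The other link was between Tmem212, a transmembrane protein of ependymal cells, and Dynlrb2, a dynein light chain. Their r was 0.88 over the 24 arrays, 0.87 after the diet and batch means were taken out, 0.89 without the pellet array that stood apart and 0.91 on the diets other than pellet. Both were highest in the HumanCafe mouse labelled batch 1 replicate 2 (Tmem212 5.05, Dynlrb2 5.40). Both were lowest, or within 0.01 of it, in the HumanCafe mouse labelled batch 2 replicate 2 (3.81 and 4.38). Their r with Rsph1 was 0.37 and 0.30, neither past the adjusted threshold (permutation p adjusted 0.177 and 0.273). Between the ependymal and the choroid plexus genes, the median r of 48 pairs was -0.10, and 0.07 without the pellet array that stood apart.

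The promoters of these genes are shown because members of the ependymal group moved together. RFX factors act with FOXJ1 on genes of motile cilia and bind the X-box, an inverted repeat of GTTGCC and its complement. Of the 33 genes, 23 had promoter windows in the RefSeq table used (GRCm38.p6), 4 of them ependymal. The 250 bases before each annotated start were searched on both strands for GTTGCC and for GTTGCC followed after 3 to 6 bases by AAC. GTTGCC alone was present in 10.4% of all 32851 windows and the form with both arms in 1.07%. Dynlrb2 and Ccdc153 held the form with both arms, 2 of the 4 ependymal genes with a window, and no choroid plexus or meningeal window did. The first base of the match lies 51 bases before the start in Dynlrb2 and 152 bases before it in Ccdc153, and Tmem212, the close partner of Dynlrb2, had no match. Capitals mark the match, and each run is 250 bases on the strand of the gene, from chr8:116504765-116505014 (+) for Dynlrb2, chr9:44240427-44240676 (+) for Ccdc153 and chr3:27896369-27896618 (-) for Tmem212.
Dynlrb2: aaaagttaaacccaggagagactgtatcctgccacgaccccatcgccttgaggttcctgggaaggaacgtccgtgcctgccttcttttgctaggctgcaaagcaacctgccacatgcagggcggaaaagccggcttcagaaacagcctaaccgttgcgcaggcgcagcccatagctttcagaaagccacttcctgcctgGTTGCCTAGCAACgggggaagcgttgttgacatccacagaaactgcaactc
Ccdc153: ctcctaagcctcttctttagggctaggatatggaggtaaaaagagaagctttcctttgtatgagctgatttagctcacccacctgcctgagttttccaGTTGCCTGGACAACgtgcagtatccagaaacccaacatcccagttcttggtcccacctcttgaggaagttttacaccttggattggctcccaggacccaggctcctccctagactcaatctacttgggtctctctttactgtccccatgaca
Tmem212: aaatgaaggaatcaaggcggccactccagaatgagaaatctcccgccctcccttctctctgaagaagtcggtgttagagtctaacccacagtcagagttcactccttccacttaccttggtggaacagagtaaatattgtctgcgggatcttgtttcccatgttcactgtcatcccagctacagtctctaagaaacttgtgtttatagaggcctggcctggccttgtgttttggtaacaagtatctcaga
A match is a description of the letters and not of binding.

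Of the choroid plexus genes that were highest in a single mouse, Kcnj13 and Kl show how unlike their windows are. The Kcnj13 window (chr1:87394730-87394979, -) holds CCAAT on both strands and TATAAA, in capitals, and is 45.2% G and C, while the Kl window (chr5:150952357-150952606, +) holds neither and is 66.8% G and C. CCAAT was present in 33.8% and TATAAA in 12.4% of all windows. TAATCC, the core bound by OTX factors, was present in 6.25% of windows and, among the 8 choroid plexus genes with a window, in 1 of the 4 Otx2 windows only.
Kcnj13: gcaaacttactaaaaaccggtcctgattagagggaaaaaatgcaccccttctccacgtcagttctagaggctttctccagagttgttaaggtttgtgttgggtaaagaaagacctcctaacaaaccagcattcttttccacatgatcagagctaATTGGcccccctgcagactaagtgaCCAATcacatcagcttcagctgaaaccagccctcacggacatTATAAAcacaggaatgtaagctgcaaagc
Kl: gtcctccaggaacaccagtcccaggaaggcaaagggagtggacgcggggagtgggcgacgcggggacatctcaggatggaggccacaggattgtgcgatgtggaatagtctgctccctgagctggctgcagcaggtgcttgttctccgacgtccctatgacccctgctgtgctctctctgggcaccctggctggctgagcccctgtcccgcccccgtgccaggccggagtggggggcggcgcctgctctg

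The ependymal genes lay lower on the FastFood than on the HumanCafe diet and higher on pellets than on the other diets together, without passing a test. Their mean signal over the 6 genes was 4.51 on the Chimpanzee, 4.54 on the FastFood, 4.72 on the HumanCafe and 4.78 on the Pellet diet. Rsph1 read 5.24 to 5.67 (median 5.39) in Chimpanzee mice, 5.30 to 5.93 (median 5.74) in HumanCafe mice, 5.21 to 5.64 (median 5.37) in FastFood mice and 5.32 to 6.16 (median 5.82) in Pellet mice. Its F test gave an unadjusted p of 0.033 (adjusted p = 0.719, limma) and the FastFood diet differed from the HumanCafe diet by -0.28 ± 0.14. All 6 ependymal genes were lower on the FastFood than on the HumanCafe diet (median -0.21, all features 0.05), and 8 of 9 further ependymal genes were too. Without the 3 arrays that stood apart it was 5 of 6, with a median of -0.11. On pellets all 6 lay above the mean of the other diets (median 0.23), while the median of all features was -0.14. This value rested on 1 array: without the Pellet mouse labelled batch 2 replicate 1 the 6 were still higher, but with a median of 0.08. Foxj1 read 4.98 in that mouse and 3.89 to 4.64 in the other 23. That array also had the lowest SD of signals, and the part of SD and signal level in these values was not tested.

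Mia, a secreted protein best known from cartilage and melanoma cells, was high in 2 arrays. It read 5.57 in the HumanCafe mouse labelled batch 1 replicate 1 and 5.62 in the pellet array that stood apart, and 4.02 to 4.82 in the other 22. In the first of these mice Col1a2 (7.40) and Col3a1 (5.48) were the highest of the 24, Col1a2 by 0.92 over the next mouse, and Col1a1 read 5.00 against 3.49 to 4.65. This array was also marked by pituitary hormones, named after their values were seen: growth hormone (Gh, 7.55 above the median of the others), prolactin (Prl, 7.56 above) and Pomc (5.12 above). The mean of the 4 pituitary genes above the filter was 9.64 there, 6.79 in the pellet array that stood apart and 3.99 to 6.36 in the other 22, and the part of pituitary or nearby tissue in Mia and the collagens was not tested. Of 17 further meningeal genes, 8 lay above the median of the others in this mouse.

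Among the meningeal genes, Igf2 varied with some matrix genes and not with others. Igf2, the growth factor that the meninges and choroid plexus release, was the reference with the highest mean after Ptgds, and read 7.74 to 8.30 (median 7.84) in Chimpanzee mice, 7.98 to 8.34 (median 8.06) in HumanCafe mice, 8.02 to 8.30 (median 8.09) in FastFood mice and 7.71 to 8.49 (median 8.26) in Pellet mice. It correlated with Igfbp2, which encodes an IGF binding protein (r = 0.68, rho = 0.69, adjusted permutation p = 0.0018 and 0.00253), with Dcn (r = 0.61, rho = 0.62, adjusted permutation p = 0.0075 and 0.0112) and with Lum (r = 0.56, rho = 0.60, adjusted permutation p = 0.0183 and 0.016). Without the 2 farthest arrays these were 0.58, 0.54 and 0.59, and within batches 0.61 and 0.77, 0.72 and 0.69, and 0.34 and 0.76. Among the other matrix genes, Bgn passed by r (0.54, adjusted permutation p = 0.026) but not by rho (0.35, adjusted 0.239). Col3a1 (r = 0.45), Fmod (0.34), Ogn (0.19) and Col1a2 (0.18) did not pass (adjusted permutation p = 0.078, 0.214, 0.52 and 0.557). Igf2 also correlated with Calml4 of the choroid plexus (r = 0.70, rho = 0.76, adjusted permutation p = 0.0018 and 0.00075), at 0.64 and 0.78 within batches and 0.58 without the 2 farthest arrays. Its r with the choroid plexus genes Kcnj13 (0.57, adjusted permutation p = 0.0132) and Clic6 (0.50, adjusted 0.0422) passed too, that of Clic6 not by rho (adjusted 0.161). Igfbp2 in turn correlated with Ttr (r = 0.68, adjusted permutation p = 0.0018), and had r of 0.76 with Sostdc1 and 0.75 with Kcnj13. With the mean of both Igf2 probe sets, which ran against each other (r = -0.42), and of all probe sets of the other genes, r was 0.36 for Igfbp2, 0.26 for Dcn, 0.24 for Lum and 0.23 for Calml4. The 10 features most like Igf2 were Fabp7, Wscd1, Lrp10, Tmem17, Lap3, Tm4sf1, Ntn1, Pllp, Stk16 and Serpinb1a (r = 0.75 to 0.83), and 15.7% of all features had an r above 0.5. Slc6a13, the GABA and taurine transporter of meningeal fibroblasts, had an r of -0.02 and a rho of 0.19 with Igf2 (adjusted permutation p = 0.963 and 0.556), and an r of 0.51 without the 2 farthest arrays. Bgn, which encodes biglycan, varied with Fmod (r = 0.75, and 0.65 without the pellet array that stood apart). Bgn read 4.58 to 5.74 over the 24 mice, and Igfbp2 read 7.42 to 8.49.

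Slc6a13 varied with Foxj1 of the ependyma (r = 0.75). After the diet and batch means were taken out, its r was 0.58 with Foxj1, 0.67 with Mia and -0.70 with Kl. That of Aldh1a2 with Col3a1 was then 0.58. Slc6a13 and Aldh1a2 varied together more closely (r = 0.79, and 0.65 without the pellet array that stood apart). In that array Slc6a13 read 6.01 against 4.55 to 5.39 in the other 23 and Aldh1a2 6.03 against 4.03 to 5.39. Ogn, which encodes the small proteoglycan osteoglycin, read 3.47 there, the lowest of the 24. By diet Ogn read 3.63 to 5.10 (median 4.80) in Chimpanzee mice, 4.26 to 5.19 (median 4.67) in HumanCafe mice, 4.53 to 5.35 (median 5.03) in FastFood mice and 3.47 to 4.82 (median 4.28) in Pellet mice. The 4 ranges overlap, with the Pellet mice lowest. Ogn had the smallest unadjusted p of the 27 genes in the pellet contrast (-0.55 ± 0.20, unadjusted p = 0.00962, adjusted p = 0.212, limma) and in the F test (unadjusted p = 0.029). Slc22a6, an organic anion transporter, stayed between 4.13 and 4.55 in all 24 mice, the smallest range of the 27. Over the 78 meningeal pairs the median r was 0.27 and 54 were positive, and without the pellet array that stood apart it was 0.29 with 70 positive.

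**Figure D3:**
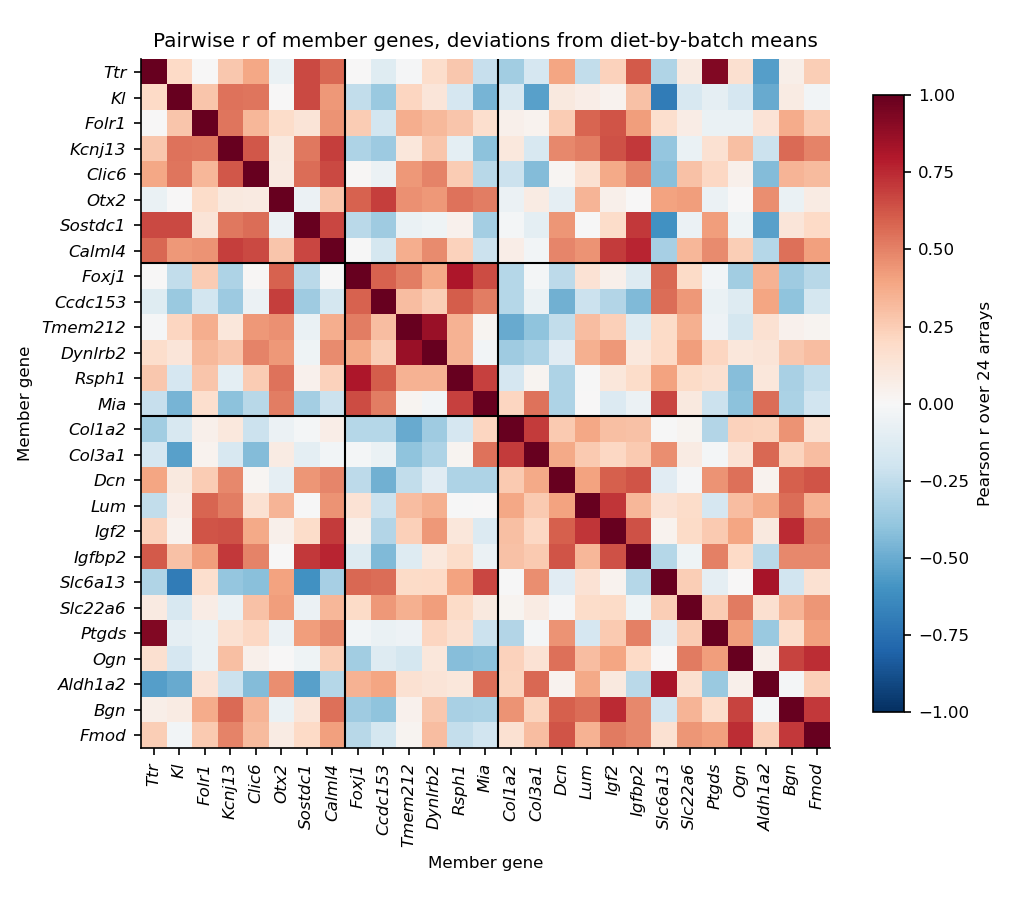
Pearson r of each pair of the 27 genes over 24 arrays after the mean of each diet and batch was taken out, with lines between choroid plexus, ependyma and meninges. Ttr with Ptgds (0.92), Tmem212 with Dynlrb2 (0.87), Slc6a13 with Aldh1a2 (0.82) and Foxj1 with Rsph1 (0.81) stand out as dark red pairs, and the block between ependyma and choroid plexus holds both colours (median 0.03).

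**Figure D4:**
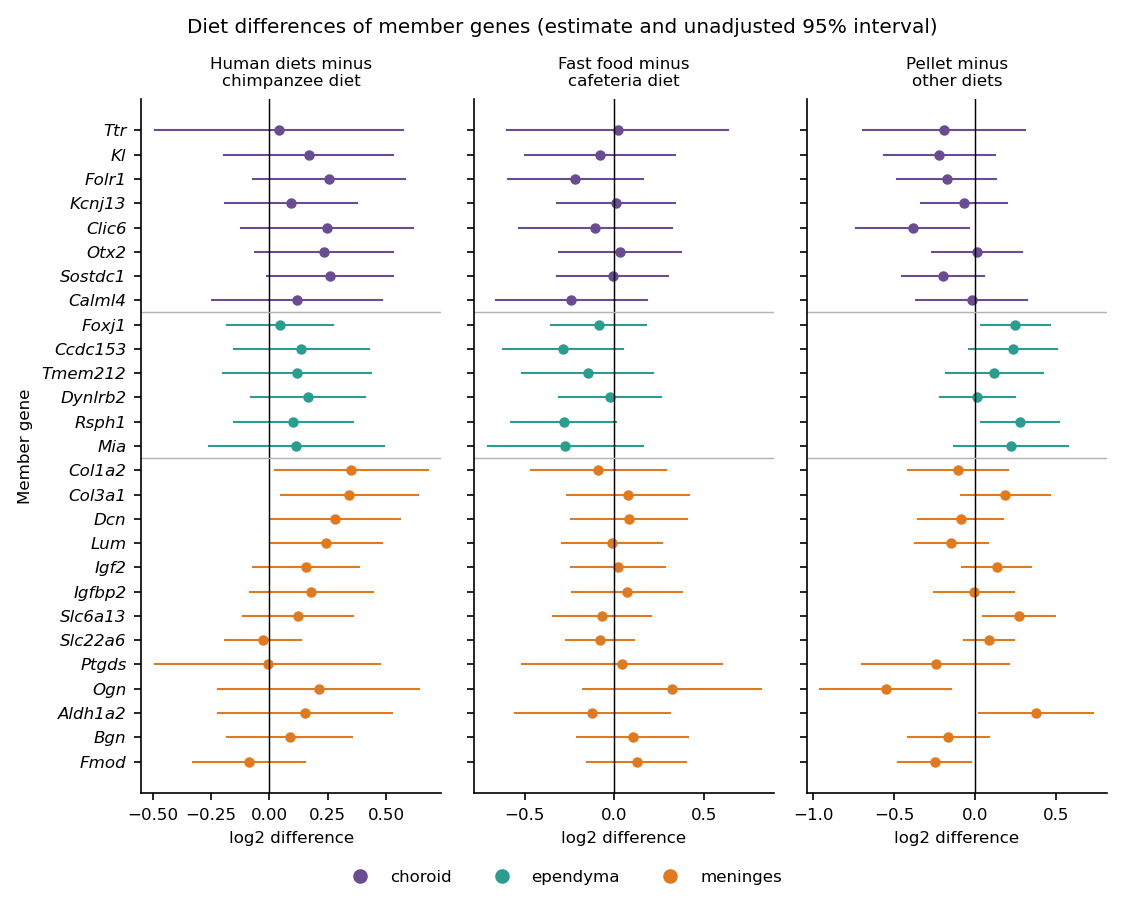
Log2 difference (points) and unadjusted 95% interval (lines) of the 27 genes in 3 diet contrasts. Most points of the left panel lie right of 0 (24 of 27), the ependymal genes lie left of 0 in the middle panel and right of 0 in the right panel, and no gene passed an adjusted p of 0.05.

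Between the labelled batches some genes of each tissue differed. On the 3 diets other than pellet, 6 of 27 genes differed between batch 2 and batch 1 at an adjusted p of 0.05, against 33.3% of all features. Ttr, Kl, Clic6 and Ptgds were higher in batch 2 (28.1% of all features were) and Ccdc153 and Aldh1a2 lower (5.19% of all features were). All 8 choroid plexus genes lay higher in batch 2 (median 0.25) and all 6 ependymal genes lower (median -0.24), with a median of 0.14 over all features. Most ependymal genes had means near the level filter: Ccdc153 (4.20), Foxj1 (4.22), Tmem212 (4.41) and Mia (4.50). The choroid plexus genes Otx2 (4.21) and Kl (4.46) were as low. The SD of signals on these diets was 1.81 to 2.02 in batch 1 and 2.01 to 2.06 in batch 2. The part of signal level and SD in the opposite directions was not tested. Lists of other cell types also lay higher in batch 2, with 9 of 9 genes of oligodendrocytes (median 0.66), 10 of 10 of neurons (median 0.50), 8 of 10 of astrocytes (median 0.32) and 7 of 7 of endothelium (median 0.25), and 4 of 4 pituitary genes lay lower (median -1.26). Their part in the batch differences was not tested. Ttr read 11.13 to 12.44 (median 11.52) in the 9 arrays of batch 1 and 12.33 to 12.65 (median 12.46) in the 9 of batch 2, so 1 array of batch 1 reached into the range of batch 2. Its difference was 0.81 ± 0.18 (adjusted p = 0.00284, limma). Clic6 read 5.27 to 5.88 (median 5.72) in batch 1 and 5.79 to 6.73 (median 6.01) in batch 2, a difference of 0.44 ± 0.11 (adjusted p = 0.0055, limma). Kl read 4.03 to 4.48 (median 4.27) and 4.47 to 5.42 (median 4.66), a difference of 0.55 ± 0.11 (adjusted p = 0.00175, limma).

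The ependymal gene Ccdc153, a coiled-coil protein of ciliated cells, went the other way. It read 3.97 to 4.82 (median 4.31) in batch 1 and 3.75 to 4.38 (median 3.90) in batch 2, a difference of -0.39 ± 0.11 (adjusted p = 0.00963, limma). Ptgds differed by 0.55 ± 0.17 (adjusted p = 0.0177) and Aldh1a2 by -0.42 ± 0.16 (adjusted p = 0.0495, limma). Some of these values changed with the scaling of the arrays: after a new quantile normalization the difference of Ttr was 0.14 (adjusted p = 0.113) and that of Ptgds -0.10 (adjusted p = 0.207, limma), while Kl, Clic6 and Ccdc153 kept the call at 0.53, 0.31 and -0.37. With the 18S signal as a covariate Kl (0.43, adjusted p = 0.501), Clic6 (0.69, adjusted p = 0.233) and Ccdc153 (0.02, adjusted p = 0.976, limma) lost it, the last with its sign turned. With the mean of all probe sets Kl was 0.20, called, and Clic6 0.20 (adjusted p = 0.075, limma). The call of Aldh1a2 held in 11 of 33 alternatives. Of further choroid plexus genes 5 of 16 were called higher and 1 lower, with the smallest p in Slc12a2 (0.74), the chloride cotransporter of the epithelium, Sulf1 (0.36) and Slc31a1 (0.41). Of further ependymal genes 2 of 9 were called lower, Dnah11 and Hydin (both -0.26), and of further meningeal genes Pdgfra was higher (0.39) and Nupr1 lower (-0.29).

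In pellet mice the batch difference of 8 of the 27 genes differed from that on the other diets, against 69.3% of all features. Ttr, Kl, Clic6, Calml4, Igf2, Ptgds and Fmod had the lower batch difference on pellets (55.6% of all features did) and Ccdc153 the higher (13.7% did). Clic6 read 5.64, 5.70 and 6.22 in the pellet arrays of batch 1 and 4.80, 5.12 and 5.36 in those of batch 2, without overlap, and the difference of differences was -1.20 ± 0.22 (adjusted p = 0.000216, limma). Kl read 4.49, 4.55 and 4.71 in batch 1 and 3.73, 4.03 and 4.29 in batch 2, also without overlap (-1.11 ± 0.23, adjusted p = 0.00045, limma). Ttr read 11.86, 12.37 and 12.60 against 10.86, 11.35 and 12.34, with overlap (-1.57 ± 0.37, adjusted p = 0.00113, limma). The median over all features was -0.55, and that of the 8 choroid plexus genes -0.72. The pellet contrast also ran in opposite ways within batches. In batch 1 alone 7 of 8 choroid plexus genes were higher on pellets than on the other diets (median 0.25) and 1 of 27 genes was called. In batch 2 alone 0 of 8 were higher (median -0.45) and 10 of 27 were called. Without the shares of all features within each batch, these 2 counts are not particular to the 27 genes. The ependymal genes had medians of 0.03 (5 of 6 higher) and 0.41 (6 of 6). After a new quantile normalization the difference of differences was nearer 0 for Ttr (-0.14, adjusted p = 0.334, limma), and that of Ptgds (0.07) and Igf2 (0.23) changed sign.

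**Figure D5:**
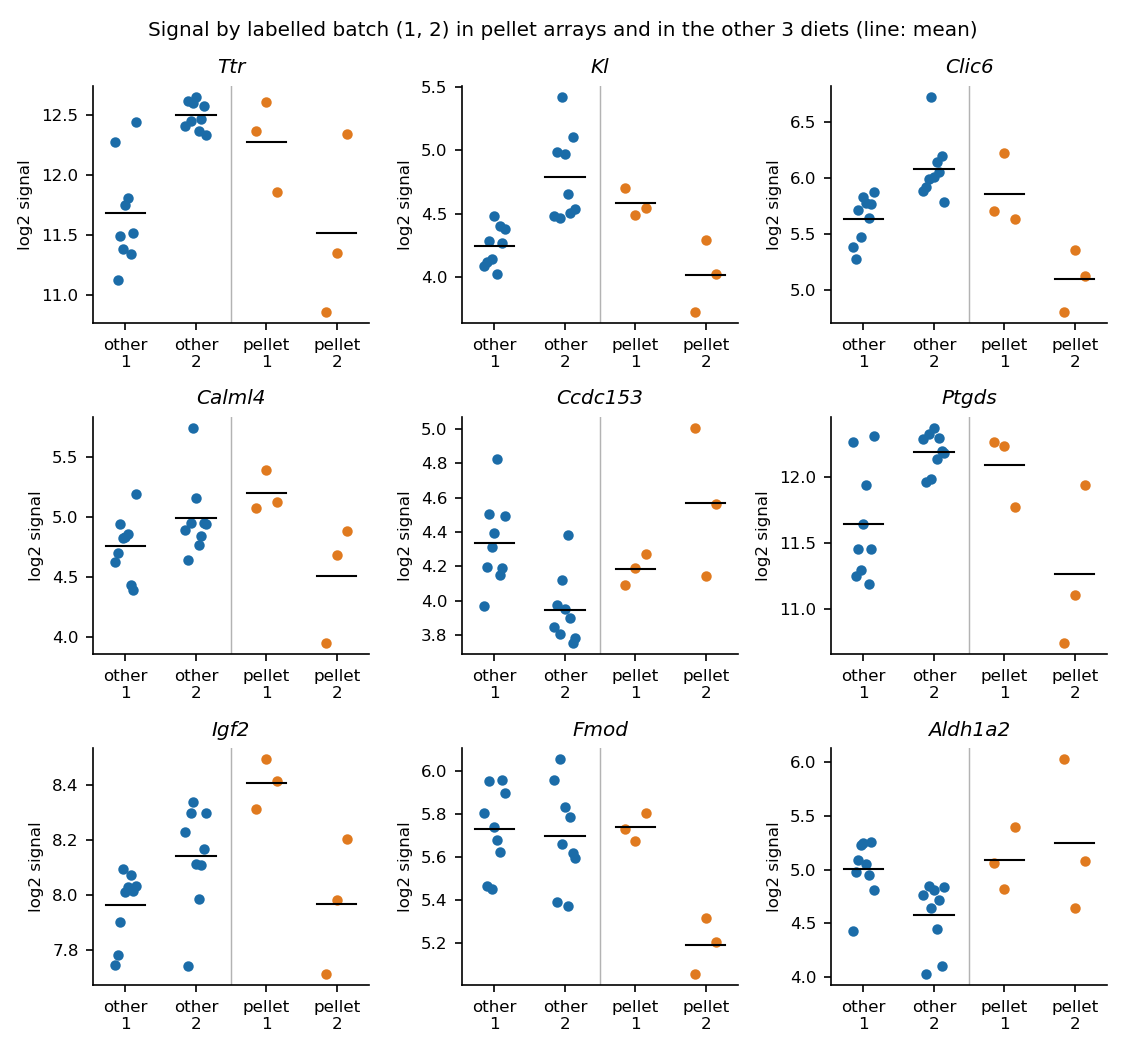
Log2 signal of 9 genes (panels) by labelled batch, on the 3 diets other than pellet (blue, 9 arrays a batch) and on pellets (orange, 3 arrays a batch), with the mean as a line. Ttr, Kl, Clic6 and Ptgds lie higher in batch 2 on the other diets and lower in batch 2 on pellets, and Ccdc153 runs the other way.

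The other genes with a called difference of differences were Ptgds (-1.38 ± 0.34, adjusted p = 0.0017), Calml4 (-0.92 ± 0.27, adjusted p = 0.00581), Igf2 (-0.62 ± 0.17, adjusted p = 0.00305), Fmod (-0.51 ± 0.19, adjusted p = 0.0248) and Ccdc153 (0.78 ± 0.22, adjusted p = 0.00376, all limma). Fmod, which encodes fibromodulin, read 5.68, 5.73 and 5.81 in the pellet arrays of batch 1 and 5.06, 5.21 and 5.32 in those of batch 2. It lost the call without either of 2 arrays, Pellet batch 2 replicate 1 (adjusted p = 0.0655) and Pellet batch 1 replicate 3 (adjusted p = 0.0596, limma), and its other probe sets had r of -0.38 to 0.50 with the one used. The second Clic6 probe set (mean 5.56) had an r of -0.08 and that of Igf2 (mean 3.16, below the level filter) -0.42 with the one used. The calls of Ttr, Kl and Clic6 were kept without the pellet array that stood apart. Without the pellet array labelled batch 2 replicate 2 the number of called genes was 14 in place of 8. Over all features the test called 9596, and 7785 to 10474 when single arrays were left out. Of further genes, 10 of 16 of the choroid plexus (5 in each direction, with the smallest p in Sulf1 at -1.13, Htr2c at -1.62 and Slc12a2 at -1.59), 5 of 9 of the ependyma (4 higher, with the smallest p in Cfap126 at 0.89) and 5 of 17 of the meninges (4 lower, with the smallest p in Pdgfra at -1.39) were called.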

How the data were processed

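The signals were measured on Affymetrix whole-genome mouse expression arrays, 1 per brain, in 24 mice. Per the study's methods the signals were computed with RMA (affy), which includes quantile normalization. The methods do not say which arrays were normalized together. The deposited values are log2 signals of 45101 probe sets. The methods excluded 1 pellet brain array for degraded RNA. The sources used here do not identify it, so all 24 were used. Genes came from the platform annotation: 34945 probe sets had 1 gene, 932 several and 9160 none listed. A gene with several probe sets was read from its brightest, and features with a mean at or above 4.07, the median of the non-control probe sets, were tested (13839 features).

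Differences were fitted on all arrays with limma 3.58.1 (R 4.3.3) (diet plus batch for the diet tests, and a mean for each of the 8 diet and batch cells for the batch tests), and p-values were adjusted over all features by Benjamini-Hochberg, with a threshold of 0.05. Differences are log2, with SE. Correlations, permutations and figures used Python 3.11.15 with numpy 2.4.6, pandas 2.3.3, scipy 1.17.1 and matplotlib 3.10.9. The fit was also run on simulated data. These had independent noise and a batch difference that depended on diet in few features, unlike the real data. They cannot show how the diet fit behaves here. Alternatives were other scalings, filters, batch handling, array weights, an 18S covariate, the mean of all probe sets of a gene, a replicate block and leaving out each array. Arrays give no read depth, and their number limits the precision. The labels do not number litters.

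The genes and lists were chosen with earlier results of these data known. Values are given by diet or array for up to 5 genes of each tissue with the largest range over the arrays, up to 8 genes called in each test and the 3 reference genes (Ttr, Rsph1 and Igf2); other genes named with values were chosen after these were seen. Up to 3 called genes are named from each further list. The cerebellar list was drawn up after several of its genes had been seen among the highest features of 1 array.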

Additional observations from a re-analysis of the deposited data

Results flagged for a closer look

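Of 108 groups of 6 mice (27 genes in 4 diets), 8 had a highest or lowest mouse far from the rest, and chance flags about 1 in 20 groups. In HumanCafe mice these were Mia at 5.57 and Col1a2 at 7.40 in batch 1 replicate 1, Igf2 at 8.34 in batch 2 replicate 1 and Foxj1 at 3.99 in batch 2 replicate 2. In Chimpanzee mice they were Mia at 4.65 in batch 1 replicate 3 and Slc6a13 at 4.55 in batch 2 replicate 2. Kl was high at 5.10 in FastFood batch 2 replicate 2, and Kcnj13 was low at 4.63 in Pellet batch 2 replicate 1.

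The batch difference differed between pellets and the other diets, by the limma test of that difference, in 8 genes. On the log2 scale the difference of differences was -1.57 for Ttr, -1.11 for Kl, -1.20 for Clic6, -0.92 for Calml4, -0.62 for Igf2, -1.38 for Ptgds, -0.51 for Fmod and 0.78 for Ccdc153. Of all features 69.3% were called in the same test and the 18S control probes ran in opposite ways in the pellet batches, and their part in these values was not tested.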

How the results depend on the processing

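No gene was called in any diet test when single arrays were left out (0 to 0 of 27). Within batch 2 alone, however, 5 of 27 were called among the 4 diets and 10 between pellets and the others. Within batch 1 alone 1 was called, between pellets and the others. The single-batch counts are given without the shares of all features and do not single out the 27 genes. The 6 genes called between batches were 2 (of 6 tested) with a level filter at 6, 3 after a new quantile normalization, 14 with array weights, 2 with the 18S signal as a covariate and 5 to 8 when an array was left out. The 8 genes called for the difference of batch differences were 3 (of 6 tested) with the filter at 6, 13 after median centring, 14 with array weights, 2 with the 18S covariate and 7 to 14 when an array was left out. Over all features that test called 9596, and 7785 to 10474 when an array was left out. All-feature counts for its other alternatives are not given here, so these changes are not particular to the 27 genes. The 20 correlations that passed were 7 without the pellet arrays, 4 after diet and batch means were taken out, 11 with the mean of all probe sets and 17 to 20 when 1 of the 3 arrays that stood apart was left out.

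Signs reversed in 7 cases. Ptgds between batches was -0.10 after quantile normalization, and Ccdc153 was 0.0231 with the 18S covariate. For the difference of differences, Ptgds was 0.0714 and Igf2 0.23 after quantile normalization, Igf2 was 0.0648 and Fmod 0.0858 with the mean of all probe sets, and Ccdc153 was -0.0214 with the 18S covariate. The cause was not tested. Over all features, the batch test called 4608, 2800 after quantile normalization, 8732 with array weights and 853 with the 18S covariate.

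Samples with the same batch and replicate number did not deviate together in the median (r of -0.02 over 36 pairs, from -0.51 to 0.48). With this spread a weak pairing by number would not show, so these values cannot decide whether the numbers pair the mice. Per the study's methods, littermates were spread evenly over the diet groups. With the replicate number as a block, 0 of 27 genes were called in each of the 4 diet tests, 6 between batches and 8 for the difference of differences.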
